A study of Homo sapiens with 8 samples.

Results

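XRN2 and XRN1 encode the pair of large exoribonucleases that digest RNA from its 5′ end, and their splice junctions are described here in HEK293 cells treated with LMI070 and with DMSO. HEK293 is an established human embryonic kidney line. LMI070, also called branaplam, is a small-molecule modifier of splicing, and DMSO is its solvent. The cells received 25 nM LMI070 or DMSO, and each group gave 4 total RNA libraries, replicates 13 to 16 for LMI070 and 9 to 12 for DMSO. A junction was taken as a member when it matched a GRCh38 intron of either gene or shared one of its splice sites. This gave 206 of the 654181 junctions in the files, 98 of XRN2 and 108 of XRN1, in 2 of the 22008 genes with reads on an annotated junction. Both genes were chosen by their measured values in these libraries, the XRN2 level and the reads of the exon described below in LMI070 against DMSO, so their own values are given as a description, without a test.

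Both enzymes act on RNA whose 5′ end carries a monophosphate. XRN2 is mainly nuclear: after a transcript has been cleaved at its polyadenylation site it degrades the RNA still attached to RNA polymerase II, and it also trims precursors of ribosomal and small nucleolar RNA. XRN1 is mainly cytoplasmic and degrades mRNA whose cap has been removed, including the 3′ fragments left by the endonuclease of nonsense-mediated decay. LMI070 is known to act at 5′ splice sites where U1 snRNP binds, with a preference for exons that end in GA.

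The libraries held 20369466 to 36131054 uniquely mapped junction reads. All 8 HEK293 identity genes had reads, with summed levels of 96.6 to 99.1 CPM (spliced reads scaled by library total and TMM factor) in LMI070 and 90.5 to 97.1 CPM in DMSO. The 6 fibroblast markers summed to 22.8 to 30.8 CPM in LMI070 and 19.8 to 24.4 CPM in DMSO, while the blood, keratinising epithelium and hepatocyte lists reached at most 0.897, 0.396 and 0.190 CPM in any library, with HBB and SERPINA1 at 0. Sequencing used lanes 7 and 8, with 2 libraries per group in each. Among the DMSO libraries, replicate 12 stood apart for XRN2, and values without it are given below. The labels do not say whether replicates were separate cultures, so the spread and the p-values may be technical.

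The members lay on chromosomes 20 and 3. XRN2 (ENSG00000088930.7) lies on the plus strand at chr20:21303304-21389827 in GRCh38 and has 1 transcript in GENCODE 29, with 29 introns, all of which had reads. XRN1 (ENSG00000114127.10) lies on the minus strand at chr3:142306607-142448062 and has 14 transcripts with 52 introns in all, of which 49 had reads; its principal transcript XRN1-201 has 41. The XRN2 junctions comprised 29 annotated and 69 unannotated ones, and those of XRN1 50 annotated and 58 unannotated. Another 3 unannotated junctions in XRN2 and 4 in XRN1 share no splice site with the annotation and are not in these counts or in the shares below. Multiply mapped reads made up 0.127% of the XRN2 reads and 0.746% of the XRN1 reads, and none of these junctions was an intron of another gene.

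The XRN2 exon at the centre of the results lies inside intron 16 (chr20:21344209-21346414, 2206 bases). It spans chr20:21345834-21345887, 54 bases long, and 0 GENCODE 29 transcripts have an exon that overlaps it. The flanking coding sequence is shown because the exon is inserted between these bases; capitals mark the last 3 bases of exon 16 and the first base of exon 17, which completes the codon that the last 2 bases of exon 16 begin. The sequences come from the GENCODE 29 transcripts.
XRN2 exon 16, last 24 bases, chr20:21344185-21344208, plus strand: acctgagccagaggataatgtCAG
XRN2 exon 17, first 24 bases, chr20:21346415-21346438, plus strand: Gttatgggaagctggctggaagca
Exon 16 thus ends in CAG. The 1529 coding bases before the intron make 509 whole codons and leave 2 bases of a split codon. The 54 bases equal 18 codons and leave the reading frame of the 950-codon protein as it is; whether they hold a stop codon was not analysed here.

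Among the annotated exons that precede an intron, 1 of 29 in XRN2 and 2 of 41 in the principal transcript of XRN1 ended in GA, the ending for which LMI070 is known. They are shown for comparison with exon 16, with the last 3 bases in capitals. The sequence of the 54-base exon itself was not read here, so whether it ends in GA is not known. The CAG of exon 16 says nothing about that end.
XRN2 exon 21, chr20:21354849-21354872, plus strand: acccagacctcactccagaagAGA
XRN1 exon 12, chr3:142418504-142418527, minus strand: gatgggggttgacgtagtatcTGA
XRN1 exon 28, chr3:142365310-142365333, minus strand: gtgaaaccccatttgctatacAGA
The introns that follow them are taken up with the intron levels below.

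Spliced XRN2 RNA was less abundant with LMI070, and spliced XRN1 RNA was not separated between the groups. XRN2 measured 345.7, 365.6, 359.8 and 351.6 CPM in LMI070 replicates 13 to 16, against 541.1, 542.4, 540.4 and 567.8 CPM in DMSO replicates 9 to 12. All 4 LMI070 libraries lay below all 4 DMSO libraries, with means of 355.7 ± 8.78 CPM in LMI070 and 547.9 ± 13.3 CPM in DMSO (SD, n = 4 each). The LMI070 mean was 64.9% of the DMSO mean, and the log2 fold change was −0.62 (SE 0.037). Without DMSO replicate 12 it was −0.59. In these bulk libraries fewer cells with XRN2 RNA and less of it per cell cannot be told apart.

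XRN1 measured 189.3, 178.7, 188.8 and 192.6 CPM in LMI070 replicates 13 to 16, against 175.1, 177.1, 186.6 and 196.2 CPM in DMSO replicates 9 to 12. The groups overlapped over most of their range, with means of 187.3 ± 6.01 CPM in LMI070 and 183.7 ± 9.72 CPM in DMSO (SD, n = 4 each). The log2 fold change was 0.03 (SE 0.040), with a 95% interval of −0.05 to 0.11. Of the 14250 genes tested, 2.58% had all 4 LMI070 libraries below all 4 DMSO libraries, as XRN2 did. Counting XRN2 itself, 44 genes had a log2 fold change at least as low as XRN2, and 2 of the 2393 genes with a mean of at least 100 CPM did; the other is PDXDC1, named below.

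**Figure D1:**
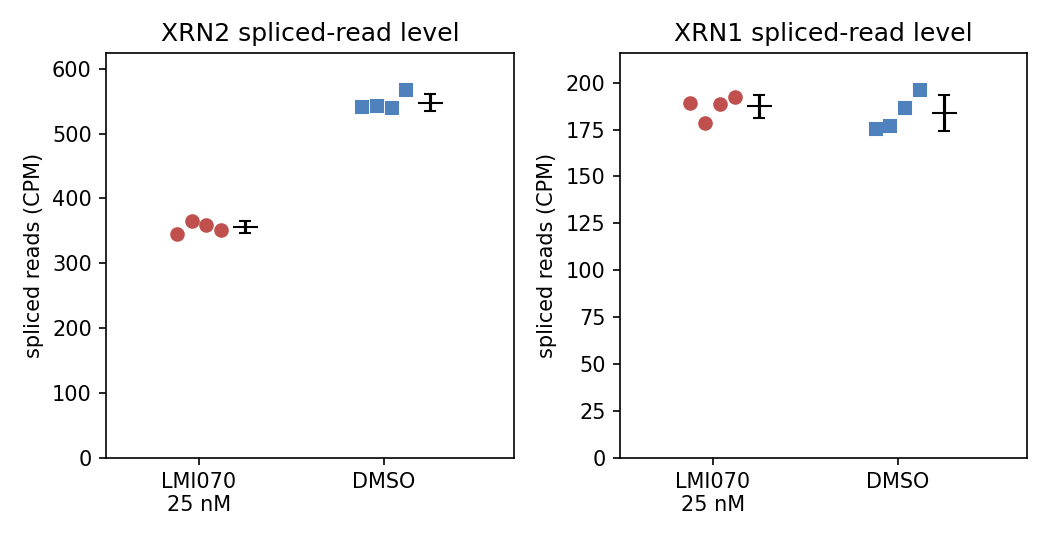
Spliced-read level in CPM of XRN2 (left) and XRN1 (right) in each LMI070 library (red circles) and each DMSO library (blue squares), with the mean and SD of each group beside the points. XRN2 lies at 345.7 to 365.6 CPM in LMI070 and 540.4 to 567.8 CPM in DMSO, and the XRN1 groups overlap.

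Levels between the genes are compared per intron, since XRN1 has more introns to collect reads from. Per principal intron, the level of XRN2 was 12.3 ± 0.303 CPM in LMI070 and 18.9 ± 0.458 CPM in DMSO, and that of XRN1 was 4.35 ± 0.140 CPM in LMI070 and 4.27 ± 0.245 CPM in DMSO (SD, n = 4 each). XRN2 was thus the more abundant of the pair on this scale in every library of both groups.

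The lower XRN2 level was found along the whole transcript, on both sides of the intron that holds the 54-base exon. All 29 introns had a lower mean level in LMI070, and in all 29 the 4 LMI070 libraries lay below the 4 DMSO libraries. Over annotated introns of all genes with at least 10 reads, 1.6% lay below in this way. The 15 introns before the host intron averaged 13.5 ± 0.473 CPM each in LMI070 and 20.6 ± 0.799 CPM in DMSO, and the 13 after it averaged 10.8 ± 0.388 CPM in LMI070 and 16.7 ± 0.468 CPM in DMSO (SD, n = 4 each). The median log2 ratio of LMI070 over DMSO was −0.61 before (range −0.66 to −0.52) and −0.63 after (range −0.73 to −0.51).

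The level after the host intron relative to the level before it did not separate the groups. As a log2 ratio within each library it was −0.32 ± 0.070 in LMI070 and −0.30 ± 0.069 in DMSO, a difference of −0.02 with overlapping ranges. The host intron itself had 498, 345, 242 and 249 reads in LMI070 replicates 13 to 16 and 518, 563, 607 and 496 reads in DMSO replicates 9 to 12. Scaled, this was 12.2 ± 1.04 CPM in LMI070 and 22.0 ± 1.27 CPM in DMSO, with no overlap and a log2 ratio of −0.85, the lowest of the 29. Relative to the mean of the other XRN2 introns, however, it stood at 99.8% ± 9.42 in LMI070 and 117% ± 8.18 in DMSO (SD, n = 4 each), and these ranges overlapped.

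XRN1 introns scattered around no difference. Of the 41 principal introns, 19 had a lower and 22 a higher mean level in LMI070, with a median log2 ratio of 0.01 and a range of −0.45 to 0.23. The lowest, intron 35, rested on 6 to 20 reads per library. In 1 intron the groups did not overlap: intron 12 (chr3:142417230-142418503), which had 4.63 ± 0.239 CPM in LMI070 and 4.03 ± 0.199 CPM in DMSO (SD, n = 4 each). It follows exon 12, one of the GA-ending exons printed above, and a link to that ending was not tested. Of annotated introns with at least 10 reads, 1.68% lay above in this way, and 1 of 41 is near that share. As a percent of all reads that share either of its splice sites, this junction overlapped between the groups. It stood at 97.9% ± 1.35 in LMI070 and 96.5% ± 2.76 in DMSO. After the other GA-ending exons, XRN1 intron 28 had a log2 ratio of 0.08 with overlapping groups, and XRN2 intron 21 one of −0.70, within the range of its neighbours.

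**Figure D2:**
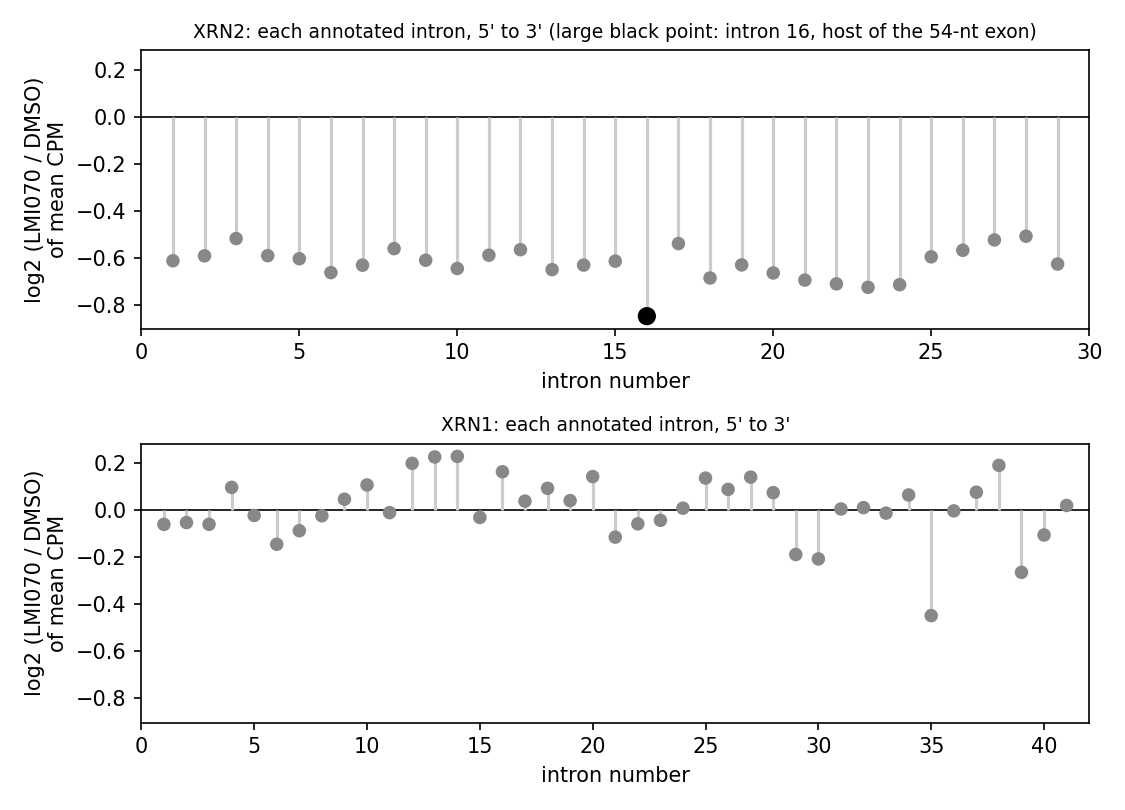
Log2 ratio of the mean CPM in LMI070 over the mean CPM in DMSO (vertical axis) for each annotated intron in transcript order (horizontal axis), for XRN2 above and the principal transcript of XRN1 below. All 29 XRN2 introns lie below 0, with the host intron lowest at −0.85, and the 41 XRN1 introns lie on both sides of 0.

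Inside intron 16 the 54-base exon was joined more often with LMI070. The junction from the end of exon 16 to its start had 8, 8, 6 and 4 reads in LMI070 replicates 13 to 16 and 0, 1, 1 and 1 in DMSO replicates 9 to 12. The junction from its end to exon 17 had 27, 24, 13 and 12 reads in LMI070 replicates 13 to 16 and 0, 3, 7 and 4 in DMSO replicates 9 to 12. The exon was therefore read in all 4 LMI070 libraries and in 3 of the 4 DMSO libraries. Its junctions reached a largest overhang, the longest stretch of a read on the shorter side, of 60 and 75 bases.

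Inclusion is the mean of both junctions that enter and leave the exon divided by that mean plus the reads that skip it. It was 3.39%, 4.43%, 3.78% and 3.11% in LMI070 replicates 13 to 16, against 0%, 0.354%, 0.655% and 0.502% in DMSO replicates 9 to 12. The groups did not overlap, with means of 3.68% ± 0.571 in LMI070 and 0.378% ± 0.280 in DMSO (SD, n = 4 each). Over all 39431 cassette exons tested, 1.87% lay above in this way. The difference was 3.30 points, under the 10 points required for a call of an exon; 0.137% of exons were called, and 0.132% were called higher.

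The sides of the exon did not carry the same number of reads. In all, 26 reads in LMI070 and 3 in DMSO joined exon 16 to its start, while 76 in LMI070 and 14 in DMSO joined its end to exon 17. The difference in inclusion was 1.83 points from the entering junction alone and 4.72 points from the leaving junction alone. A further 13 reads in LMI070 and 4 in DMSO entered it from the end of an 88-base exon in the same intron, on a junction without an annotated site.

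Of the reads into exon 17, 5.23% ± 0.868 came from the end of the 54-base exon in LMI070 and 0.611% ± 0.476 in DMSO (SD, n = 4 each). Summed over libraries this was 76 of 1435 reads in LMI070, or 5.30% (exact 95% binomial interval 4.20 to 6.58%), and 14 of 2219 in DMSO, or 0.631% (0.345 to 1.06%). DMSO replicate 9 had 0 of 522 reads. This allows a share of up to 0.575% with a limit of 3 counts, and up to 0.704% by its exact interval. Intervals and such limits cover counting error only, since reads from the same amplified molecule were not told apart.

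A second 5′ splice site 4 bases further on gave a 58-base form of the exon. It had 3, 1, 2 and 10 reads into exon 17 in LMI070 replicates 13 to 16 and 0, 1, 2 and 1 in DMSO replicates 9 to 12. Of the 16 LMI070 reads, 10 were in replicate 16, and the share of reads into exon 17 overlapped between the groups. Insertion of 58 bases leaves a remainder of 1 base over whole codons, so this form shifts the reading frame.

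The 88-base exon (chr20:21344854-21344941) lies upstream of the 54-base exon in the same intron. Its inclusion was 1.01% ± 0.439 in LMI070 and 0.680% ± 0.253 in DMSO (SD, n = 4 each), and the ranges overlapped. From its end, 7 reads in LMI070 and 17 in DMSO went straight to exon 17, while 13 in LMI070 and 4 in DMSO went to the 54-base exon, as given above. Inserted together the exons add 142 bases, which leaves a remainder of 1 base over whole codons.

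**Figure D3:**
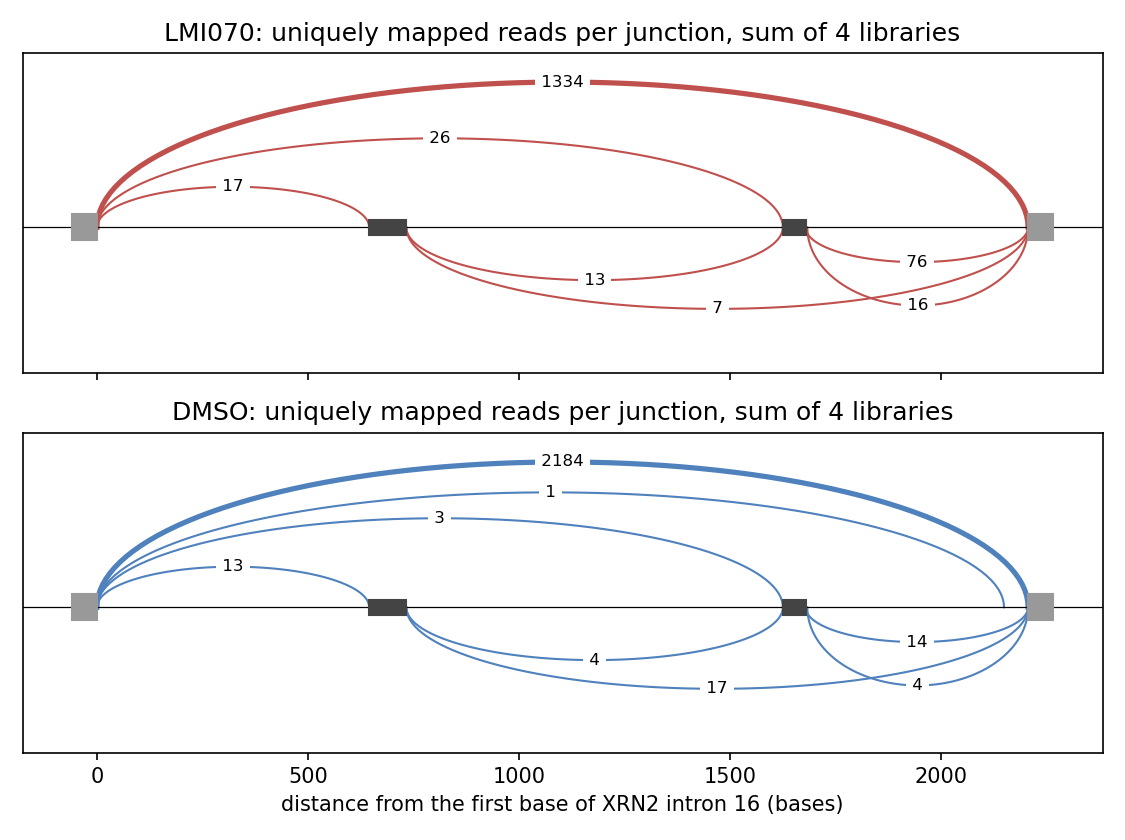
Map of XRN2 intron 16 with the distance from its first base in bases (horizontal axis), exons 16 and 17 as grey boxes and the 88-base and 54-base exons as dark boxes, for LMI070 above and DMSO below. Each arc is a junction with its uniquely mapped reads summed over 4 libraries, its height has no scale, and the lower right arcs are the 54-base and 58-base ends, with 76 and 16 reads in LMI070 and 14 and 4 in DMSO.

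Set against the level of the transcript, the reads on these new junctions were few. The annotated junction of the host intron was lower by 9.80 CPM in LMI070 than in DMSO. That fall includes the lower level found in all 29 introns, and how the exon relates to that level was not tested. Reads into exon 17 from any other site measured 0.961 ± 0.109 CPM in LMI070 and 0.351 ± 0.165 CPM in DMSO (SD, n = 4 each). The groups did not overlap, and the difference was 0.610 CPM. These reads include those from the end of the 88-base exon, 7 in LMI070 and 17 in DMSO. As a share of all reads into exon 17, reads from any other site made up 7.35% ± 1.21 in LMI070 and 1.56% ± 0.682 in DMSO.

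**Figure D4:**
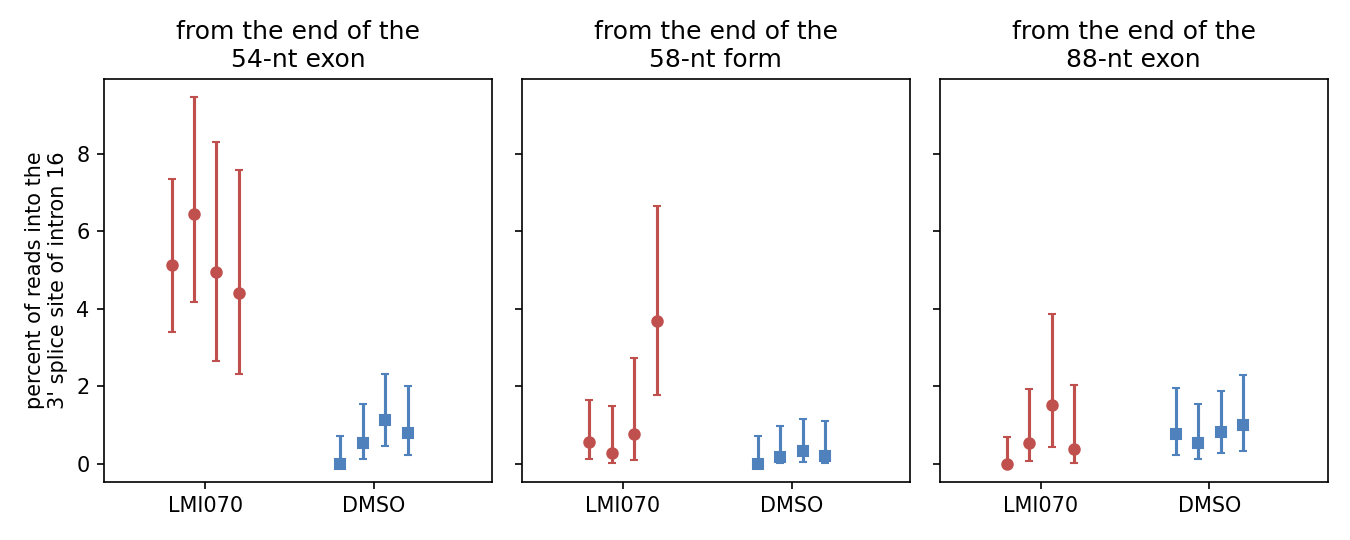
Percent of reads into the 3′ splice site of XRN2 intron 16 (vertical axis) that come from the end of the 54-base exon, its 58-base form and the 88-base exon, for each LMI070 library (red circles) and each DMSO library (blue squares), with exact 95% binomial intervals. The groups are apart for the 54-base exon, means 5.23% in LMI070 and 0.611% in DMSO, and overlap for the other ends, where LMI070 replicate 16 is highest for the 58-base form.

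Unannotated junctions took a larger share of XRN2 reads with LMI070. The share was 0.673%, 0.968%, 0.826% and 0.809% in LMI070 replicates 13 to 16, against 0.373%, 0.239%, 0.416% and 0.416% in DMSO replicates 9 to 12. The groups did not overlap, with means of 0.819% ± 0.120 in LMI070 and 0.361% ± 0.0835 in DMSO (SD, n = 4 each). Outside the host intron the share was 0.444% ± 0.0890 in LMI070 and 0.266% ± 0.0689 in DMSO, still without overlap. The level of those same junctions, which does not have the total of XRN2 as its denominator, was 1.60 ± 0.361 CPM in LMI070 and 1.47 ± 0.389 CPM in DMSO, and there the groups overlapped.

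Most unannotated XRN2 junctions were rare. Of the 69, 19 were read in LMI070 alone, 14 in DMSO alone and 36 in both; 29 had a single read over all libraries, 15 had at least 10 and 5 were read in all 8 libraries. No junction read in LMI070 alone had more than 3 reads, and none read in DMSO alone more than 2. For XRN1 the share of reads on unannotated junctions was 0.949% ± 0.126 in LMI070 and 1.02% ± 0.0884 in DMSO (SD, n = 4 each), with overlap. Of its 58 unannotated junctions, 20 were read in LMI070 alone, 19 in DMSO alone and 19 in both, and 6 had at least 10 reads.

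Of the 14 XRN2 exons in the table, which include forms with a shared splice site, 3 had higher inclusion in LMI070 without overlap, 0 lower, and 11 overlapped with differences of at most 0.71 points. The 3 were the 54-base exon, its 58-base form and an unannotated exon of 154 bases (chr20:21366637-21366790). The 58-base form has the same entering junction as the 54-base exon, so these are not separate results. The share of reads from its own end overlapped between the groups, as given above. Inclusion of the 154-base exon was 1.02%, 0.728%, 1.19% and 1.03% in LMI070 replicates 13 to 16 and 0.465%, 0.0929%, 0.273% and 0.221% in DMSO replicates 9 to 12. It rested on 8 entering and 20 leaving reads in LMI070 and 6 and 4 in DMSO. All 3 exons reached the minimum of 10 inclusion reads for the table only with their LMI070 reads. In DMSO the entering and leaving reads were 3 and 14 for the 54-base exon and 3 and 4 for its 58-base form. The count of 3 higher and 0 lower thus depends in part on that filter.

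XRN1 had 9 exons in the table, and 3 of them did not overlap between the groups. An annotated exon of 114 bases near the 3′ end (chr3:142318790-142318903) was included at 82.9%, 84.0%, 81.9% and 85.4% in LMI070 replicates 13 to 16, against 75.1%, 78.4%, 75.8% and 76.5% in DMSO replicates 9 to 12. The LMI070 libraries were all higher than the DMSO ones, by 7.10 points on the means. A form shorter by 4 bases, whose own leaving junction had 1 read in LMI070 and 0 in DMSO, shares its entering junction and lay higher too. Skipping reads, on a junction that is not annotated, numbered 74 in LMI070 against 96 in DMSO, and this was the most abundant unannotated junction of XRN1. The other was a second annotated exon of 114 bases (chr3:142383300-142383413), with 96.1% ± 1.12 in LMI070 and 98.6% ± 0.784 in DMSO (SD, n = 4 each) and with 20 skipping reads in LMI070 and 7 in DMSO. Across the whole table, 1.87% of exons lay above and 1.59% below without overlap.

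Junction usage, the reads of a junction as a percent of all reads that share either of its splice sites, gave the same picture of the host intron. Usage of its annotated junction was 89.8% ± 1.65 in LMI070 and 97.7% ± 1.08 in DMSO (SD, n = 4 each), without overlap. Of the member junctions with enough reads, 3 of 34 in XRN2 lay above and 2 below without overlap, and in XRN1 3 of 40 above and 3 below. Of all 129495 junctions, 1.21% lay above and 1.24% below. The member counts are not separate results and show no excess over these shares. In XRN2 they include both junctions of the exon at the centre of the results and the host junction, which shares their sites. Those of XRN1 all enter, leave or skip the annotated exons described above. The XRN2 junctions above had 76, 26 and 20 reads in LMI070 but 14, 3 and 4 in DMSO, where the minimum was 20.

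Genes of the steps around both enzymes were described through 5 lists with 91 genes, of which 90 were tested. The edgeR quasi-likelihood test with Benjamini-Hochberg adjustment over all genes called 0 of the 90, where 0.126% of the 14250 genes were called, 0.021% higher and 0.105% lower. DESeq2 called 0 as well. At an unadjusted p under 0.05 there were 13 of 90 list genes, all higher in LMI070. Of all 14250 genes, 816 were higher at that p, the count in the same direction as these 13. Another 665 were lower, and 10.4% reached that p in either direction. In some of the 13, LMI070 replicates 14 and 15 were no higher than the highest DMSO library. There the rise lay in replicates 13 and 16, both in lane 7. That lane also held DMSO replicates 11 and 12, and whether lane plays a part in the rise was not tested. The smallest adjusted p was 0.295, for SUPT5H, an elongation factor of RNA polymerase II, with 261.0 ± 12.3 CPM in LMI070 and 234.6 ± 11.4 CPM in DMSO. The median log2 fold change of the list genes was 0.02, against −0.0024 over all genes.

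By list, the most abundant member shows the scale. Decapping and cytoplasmic decay, the steps that feed and surround XRN1, had a median log2 fold change of 0.03 over 23 genes, and DDX6, a helicase of decapping complexes, measured 232.6 ± 10.6 CPM in LMI070 and 226.5 ± 7.01 CPM in DMSO. Deadenylation, which precedes decapping, had a median of 0.06 over 19 genes, and CNOT1, the scaffold of the CCR4-NOT complex, measured 768.1 ± 54.8 CPM in LMI070 and 751.4 ± 42.2 CPM in DMSO. Cleavage and polyadenylation, which creates the 5′ end that XRN2 enters, had a median of 0.01 over 19 genes, and PAPOLA, a poly(A) polymerase, measured 363.6 ± 51.5 CPM in LMI070 and 343.8 ± 23.9 CPM in DMSO. None of these genes passed the test.

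Nuclear partners of XRN2 and termination factors had a median log2 fold change of −0.01 over 21 genes. DHX9, an RNA helicase, measured 1257 ± 29.1 CPM in LMI070 and 1248 ± 50.6 CPM in DMSO (SD, n = 4 each). Factors of nonsense-mediated decay upstream of XRN1 had a median of 0.09 over 8 genes, and SMG1, the kinase of UPF1, measured 261.0 ± 28.0 CPM in LMI070 and 260.0 ± 17.1 CPM in DMSO. The edgeR test called 0 of 353 cassette exons of list genes, with 0.137% of all exons called, and 0 of 1253 junctions, with 0.066% called. Without the requirement of 10 points the counts were also 0, where 0.322% of all exons and 0.144% of all junctions had an adjusted p under 0.05.

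**Figure D5:**
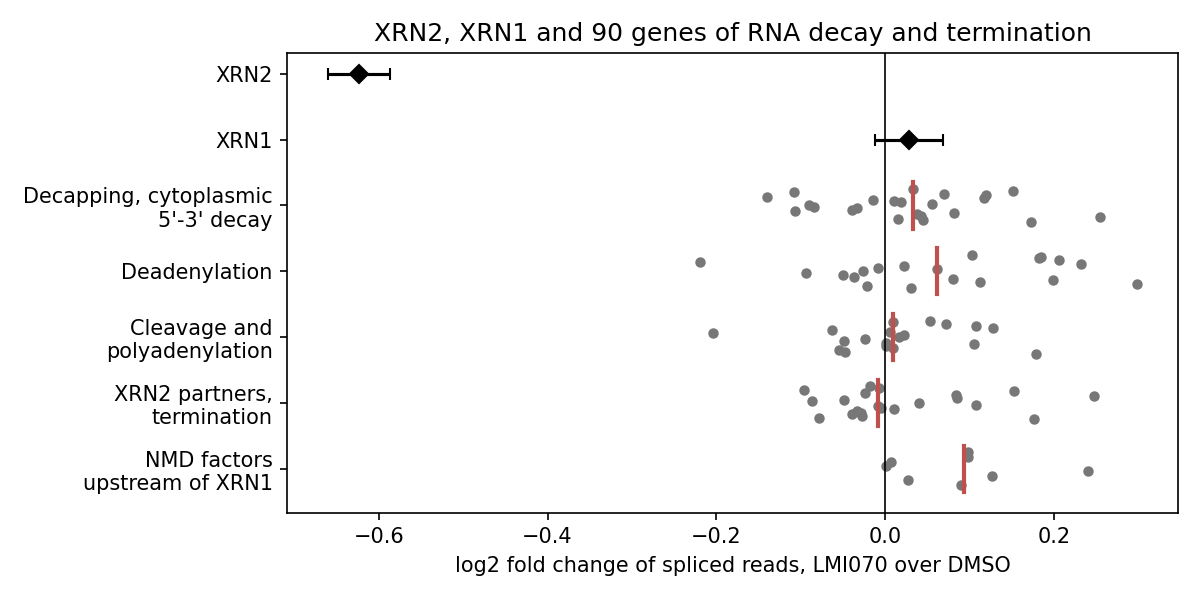
Log2 fold change of spliced reads, LMI070 over DMSO (horizontal axis), for XRN2 and XRN1 with their standard errors (black diamonds) and for the 90 tested genes of 5 lists (grey points), with each list's median as a red bar. XRN2 stands at −0.62 and the list genes lie between −0.22 and 0.30.

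Genes whose level followed XRN2 most closely over the 8 libraries were FBXO9, PDXDC1 and CALCOCO2, with Pearson's r of 0.987, 0.986 and 0.984 for log2 CPM among 10905 genes compared. They share libraries and treatment with XRN2, and their means also differed between the groups. PDXDC1 measured 147.9 ± 5.27 CPM in LMI070 and 248.7 ± 4.07 CPM in DMSO, FBXO9 100.3 ± 1.73 CPM in LMI070 and 132.4 ± 5.68 CPM in DMSO, and CALCOCO2 121.4 ± 2.07 CPM in LMI070 and 137.6 ± 2.37 CPM in DMSO (SD, n = 4 each). For XRN1 the nearest were CACUL1, FBXW2 and FAM102B, with r of 0.979, 0.965 and 0.954, and all of these overlapped between the groups.

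The exons of other genes with inclusion nearest to that of the XRN2 exon were in LNPK (chr2:175970199-175970417), THADA (chr2:43538310-43538493) and NUP58 (chr13:25302927-25303155). Their root mean square differences from it over the 8 libraries were 0.567, 0.570 and 0.679 points. The LNPK exon, 219 bases long, was included at 4.23% ± 0.668 in LMI070 and 0.421% ± 0.187 in DMSO. Neither junction of the LNPK or THADA exon was annotated, while both of the NUP58 exon were.

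Since XRN2 acts after transcript cleavage, reads that join splice sites of 2 different genes were counted as a measure that the choice of the members did not use. The 1271 junctions of this kind took 34.6, 32.6, 31.8 and 31.1 CPM, here scaled to annotated junction reads alone, in LMI070 replicates 13 to 16, against 31.9, 30.7, 30.2 and 33.1 in DMSO replicates 9 to 12. The groups overlapped, with means of 32.5 ± 1.48 CPM in LMI070 and 31.5 ± 1.30 CPM in DMSO (SD, n = 4 each). The difference of 1.03 CPM was smaller than the SD of either group. An exact two-sided permutation test over all 70 assignments of libraries to groups gave p = 0.371. The smallest p this test allows is 0.0286, and the assignments did not take lane into account. Unspliced reads beyond gene ends were not analysed here.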

How the data were processed

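Total RNA depleted of ribosomal RNA was made into stranded libraries, per the labels' protocols. Per the submitters' processing notes, STAR 2.6.0c and the build GRCh38 were used. The deposited tables list, for each library, raw counts of reads that cross each splice junction, without normalization by the authors; the files have no header, and uniquely mapped counts were used. Alignment settings are not given in the sources used here. Reads within exons or introns are not in such tables, so a level rests on spliced reads alone, and a gene with more introns collects more of them.

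Junctions were matched to GENCODE 29, which gave the same annotation status as the deposited mark for 99.76% of them. Gene levels are sums over annotated introns; 95.85% of annotated reads lay in introns of 1 gene. Genes that passed the edgeR expression filter were fitted with edgeR 4.0.16 (R 4.3.3), TMM factors and a model of lane plus treatment, with the quasi-likelihood test and Benjamini-Hochberg adjustment over all genes. CPM uses the same factors. Cassette exons (3 to 500 bases, at least 10 inclusion and 10 skipping reads, 10 reads in each library) and junction usage (at least 20 reads, 10 for the sites in each library) were fitted on paired counts, and called at an adjusted p under 0.05 and 10 points. DESeq2 1.42.0 was an alternative. Scripts were tested on simulated data.

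Replicates differed by more than counting error: the chi-square per degree of freedom was 1.15 to 1.96 within lanes and 1.78 to 2.95 between lanes. Limits for a count of 0 use 3 counts. Members, lists and alternatives were chosen with earlier results of these data known, and the count of reads that join 2 genes was added after seeing the data. Named genes were the members; list genes past the test or, where a list had none, its most abundant gene; and the 3 nearest in level (mean of at least 100 reads, log2 of CPM plus 0.5) or inclusion. SUPT5H, which has the smallest adjusted p of the lists, was named after its values were seen.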

Additional observations from a re-analysis of the deposited data

Results flagged for a closer look

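The XRN2 level of DMSO replicate 12, 567.8 CPM, stood apart from the other DMSO libraries. They lay between 540.4 and 542.4 CPM, so its gap to the nearest was 0.928 of the range of the group, above the Dixon limit for 4 samples. Chance flags about 1 in 20 groups, and 18 groups were looked at. The library is the highest of DMSO, and without it the log2 fold change of XRN2 was −0.59 in place of −0.62.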

How the results depend on the processing

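No paired analysis was possible because the groups share no replicate number. The XRN2 level lay between −0.66 and −0.58 on the log2 scale over its 17 alternatives, from lane 7 alone (−0.66) to lane 8 alone (−0.58), and from −0.63 to −0.59 with each library left out. XRN1 lay between 0.0012 and 0.060. The difference in inclusion of the 54-base exon was 3.30 points; it was 1.83 from the upstream junction or from the smaller junction, 4.72 from the downstream junction, 5.79 as the share into exon 17 from any other site (added after seeing the data), 2.68 in lane 7, 3.93 in lane 8, and 3.05 to 3.49 with each library left out. The difference in the XRN2 share on unannotated junctions, 0.458 points, was 0.325 in lane 7 and 0.591 in lane 8, and 0.409 to 0.507 with each library left out. The level after against before the host intron, −0.02, ran from −0.06 to 0.01. Gene calls numbered 18, against 37 with DESeq2, 272 without the filter on low counts, 666 in lane 7, 47 in lane 8 and 11 to 18 with each library left out, the 11 without LMI070 replicate 14. Exon calls numbered 54, against 33 in each lane alone and 48 to 55 with each library left out. Usage calls numbered 86, against 55 with DESeq2, 51 in lane 7, 50 in lane 8 and 74 to 82 with each library left out. List genes past the test numbered 0, and 0 with each library left out, but 7 without the filter on low counts. The cause of these shifts was not tested. Depth limits the exon: its entering junction had 0 to 8 reads per library.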
